A study of Homo sapiens with 12 samples.

Results

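Tubule injury and repair markers were followed in human proximal tubular cells (HPTCs) as 9 genes, HAVCR1, SPP1, CLU, IGFBP7, TFF3, PROM1, SOX9, SOX4 and ANXA1, out of the 25992 gene names on the array. They were found by the gene name that the array files give to each probe, control spots aside, which yielded 11 probes: 3 for TFF3 and 1 for each of the others. All 9 genes passed the filter on dim signals and entered the fit, which tested 17843 genes. Of the 9, the osteopontin gene SPP1 was upregulated by IL-1β and the transcription factor gene SOX4 was downregulated, and no gene of the set passed the threshold with Empa. The other 7 differed between slides in their control level, in their response, or were near the background.

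Cells came from 2 lines of human proximal tubule, HK-2, immortalized by genes of a papillomavirus, and RPTEC/TERT1, immortalized by telomerase. Both were grown at normal glucose and deprived of serum and supplements for 24 h. After a change of medium they were exposed for 24 h to 10 ng/mL IL-1β, to 500 nM Empa (empagliflozin, an inhibitor of the glucose transporter SGLT2), or to neither as the control. Each of the 6 groups has 2 arrays, and no group received both agents. Each of the 4 slides holds the control, the IL-1β and the Empa array of 1 line label and 1 replicate number. The study's methods call the replicates biological duplicates, and the labels do not say which cultures they came from.

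A damaged proximal tubule cell loses its brush border and transport functions, puts out injury proteins, and either redifferentiates or stays in a state of failed repair. HAVCR1 encodes KIM-1, a surface receptor for dying cells that appears on injured tubules and is shed into urine. SPP1, CLU, IGFBP7 and TFF3 encode secreted proteins, PROM1 encodes the stem and progenitor marker CD133, and SOX9 and SOX4 encode transcription factors of regenerating and developing epithelium. ANXA1 encodes annexin A1, a calcium- and lipid-binding protein that restrains inflammation.

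The line labels could not be relied on. Over 15324 probes well above background on all 12 arrays, Pearson's r between arrays of the same treatment was 0.852 to 0.880 for 2 slides that carry the same line label, and 0.960 to 0.984 for slides paired across the labels in the following way. Replicate 1 of HK-2 goes with replicate 2 of RPTEC/TERT1, called slide pair A, and replicate 2 of HK-2 goes with replicate 1 of RPTEC/TERT1, called slide pair B. A further label field names HK-2 for all 12 arrays. The pairs were formed from the data, so differences between them are described and not tested. Fits of 1 pair alone rest on 2 slides picked for their likeness, treated arrays included. Their adjusted p-values describe those slides and are not independent support for a response. Slides of 1 replicate number were scanned on the same day, and each pair spans both days. Of 8 renal epithelial markers, PAX8, CDH2, CDH16, EPCAM, KRT8 and KRT18 were well above background on all 12 arrays. PAX2 and CDH1 were so on the 6 arrays of pair A and on none of pair B. Of 16 proximal tubule markers 11 were tested, and CUBN, SLC5A1, SLC22A6 and HNF4A were well above background on at most 1 array. Among the markers of other cells, PECAM1, KDR, TEK, WT1, COL1A2 and PDGFRB were likewise well above background on at most 1 array.

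Signals were scaled to the 75th percentile of each array and are given in signal units at a common level. A lower value can mean fewer cells with the transcript or less of it per cell, which these measurements cannot tell apart. Levels of different genes are not compared, since each comes from its own probe.

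The probes of SPP1, which rose, and PROM1, which had a signal in 1 slide pair only, are shown to say what was read. The array files place them on hg19 at chr4:88903920-88903979 on the plus strand for SPP1 and chr4:15982046-15982105 on the minus strand for PROM1. They are 60 bases long and are printed 5′ to 3′ in lower case with no part marked.
SPP1 probe: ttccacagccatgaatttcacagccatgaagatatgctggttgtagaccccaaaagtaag
PROM1 probe: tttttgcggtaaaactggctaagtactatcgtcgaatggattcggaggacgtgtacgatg
The SPP1 probe is spotted 10 times on each array and the other member probes once. The probes of HAVCR1 (chr5:156456571-156456630), SOX9 (chr17:70121841-70121900), SOX4 (chr6:21598001-21598060), IGFBP7 (chr4:57897423-57897482) and ANXA1 (chr9:75785002-75785061) are placed on the same build, and exon and UTR annotation was not used here.

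In control cells, SPP1, SOX4 and TFF3 had overlapping levels in the 2 slide pairs, whereas HAVCR1, PROM1, SOX9, IGFBP7, ANXA1 and CLU took separate ranges. For the first 5 of these the 6 arrays of pair A and the 6 of pair B did not overlap, as held for 29.7% of all genes tested. PROM1 and SOX9 passed the filter through pair A alone, so a difference was built into their inclusion. None of the 9 genes was shown to differ between the control arrays labelled RPTEC/TERT1 and HK-2 in limma's test (adjusted p = 1 for each). That comparison called 0 of 17843 genes (0%), with 183 (1.03%) at an unadjusted p under 0.05, and each label there joins a slide of both pairs.

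**Figure D1:**
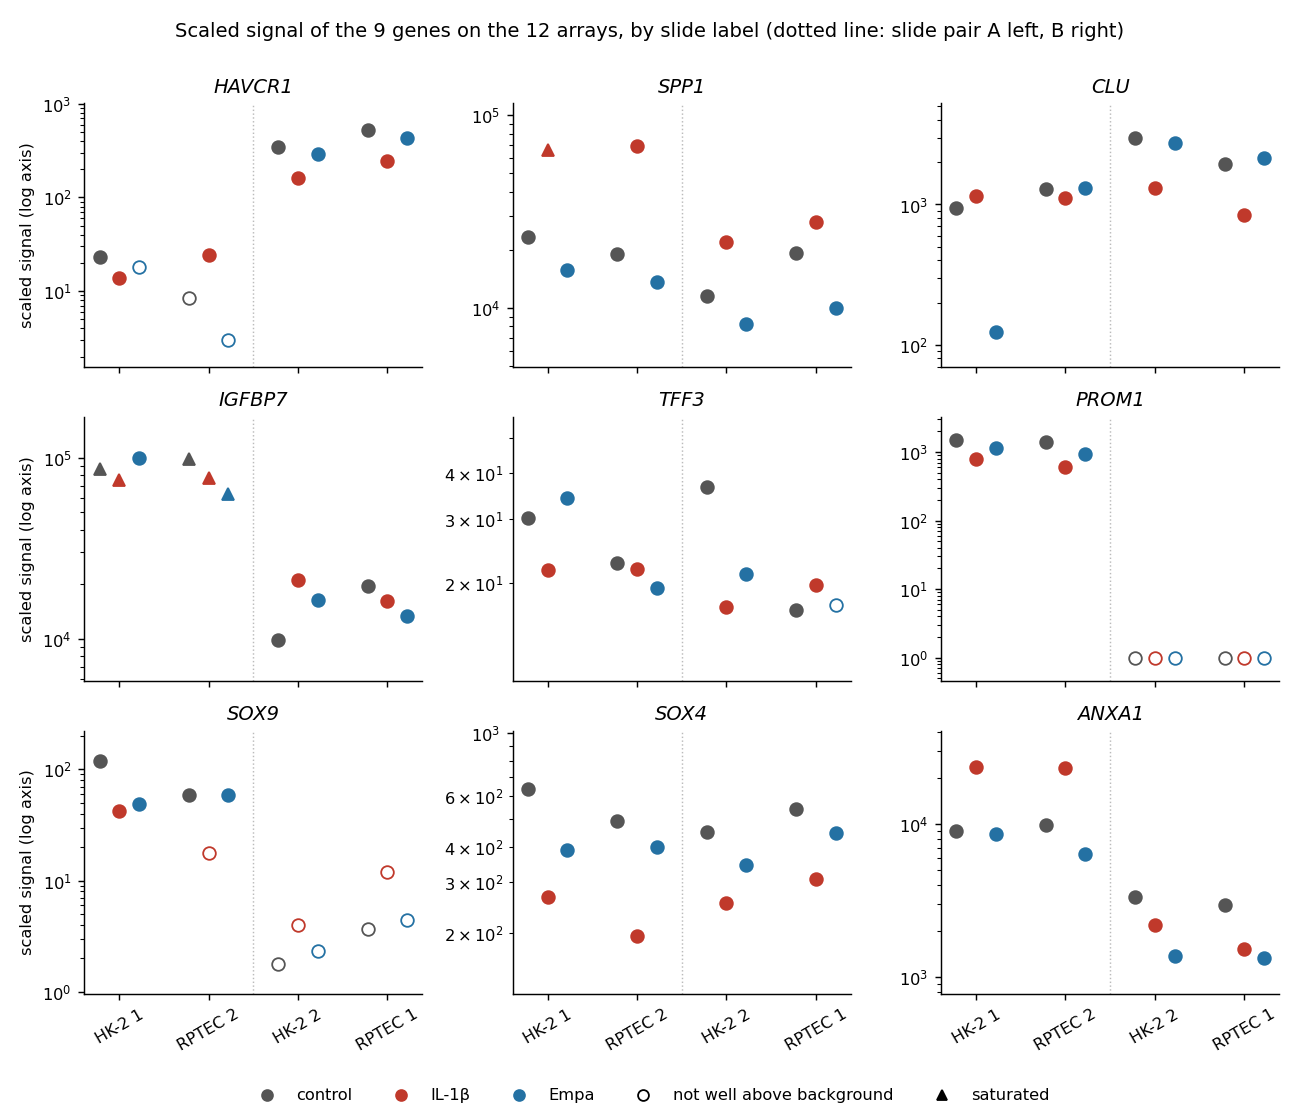
Scaled signal (log axis, signal units) of the 9 genes on the 12 arrays. Each panel has the 4 slides on the horizontal axis, with control, IL-1β and Empa as separate points. Open points were not well above background and triangles were saturated. PROM1 lies between 601 and 1492 on the 6 arrays left of the dotted line and at the floor of 1 on the 6 to its right, while SOX4 lies between 194 and 638 throughout.

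SPP1, the gene of osteopontin, a secreted phosphoprotein that binds integrins and CD44, rose with IL-1β. On the slide labelled HK-2 replicate 1 its scaled signal was 23144 in the control, 65410 with IL-1β and 15594 with Empa. On RPTEC/TERT1 replicate 2 it was 19057, 68741 and 13530, in the same order. The pair B slides gave 11540, 21942 and 8237 for HK-2 replicate 2, and 19222, 27702 and 9938 for RPTEC/TERT1 replicate 1. On every slide the IL-1β array was thus the highest and the Empa array the lowest, and the 4 IL-1β arrays did not overlap the 4 Empa arrays.

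IL-1β upregulated SPP1 2.30-fold (log2 difference 1.20, SE 0.22, 95% interval 0.69 to 1.71, limma with slide as a block, adjusted p = 0.0151, higher on 4 of 4 slides). Among all genes tested, 8.89% passed this threshold with IL-1β, 4.05% did so upward, and 17.5% lay above the control on all 4 slides. The IL-1β array of HK-2 replicate 1 was saturated at SPP1, which makes its increase at least 2.83-fold. The other slides measured 3.61-fold (RPTEC/TERT1 replicate 2), 1.90-fold (HK-2 replicate 2) and 1.44-fold (RPTEC/TERT1 replicate 1). Saturation was marked only where most spots of a probe were saturated. On the IL-1β array of RPTEC/TERT1 replicate 2 SPP1 read 68741, and the saturated IGFBP7 probe read 76792. The 3.61-fold thus lies near the ceiling and may be too low. In the slides of pair A alone the log2 difference was 1.67 (SE 0.23, adjusted p = 0.0251), and in those of pair B alone 0.73 (SE 0.17, adjusted p = 0.103). These fits called 9.55% and 4.56% of all genes. The call was lost when any single control or IL-1β array of pair A was left out, with adjusted p of 0.0643 without HK-2 control replicate 1, 0.0533 without HK-2 IL-1β replicate 1, 0.0645 without RPTEC/TERT1 control replicate 2 and 0.0525 without RPTEC/TERT1 IL-1β replicate 2.

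With Empa, SPP1 was lower than in the control of the slide on 4 of 4 slides, and the log2 difference was -0.63 (SE 0.22, 95% interval -1.14 to -0.11). This missed the threshold (limma, adjusted p = 0.409). The within-slide ratios to the control were 0.674, 0.710, 0.714 and 0.517. The study searched for genes that the 2 agents move in opposite directions, up by IL-1β, and of the 9 genes SPP1 alone read so on all 4 slides. The same held for 231 of 17843 genes (1.29%), and both differences use the same control arrays.

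SOX4, which encodes a transcription factor of the SoxC group that acts in developing and regenerating epithelium, moved the other way with IL-1β. Its scaled signals in control, IL-1β and Empa cells were 638, 266 and 391 on HK-2 replicate 1. They were 492, 194 and 397 on RPTEC/TERT1 replicate 2. In pair B they were 448, 253 and 345 on HK-2 replicate 2, and 541, 308 and 447 on RPTEC/TERT1 replicate 1. The 4 IL-1β arrays all lay below the 4 control arrays, with the Empa array between them on each slide. IL-1β downregulated SOX4 2.09-fold (log2 difference -1.06, SE 0.16, 95% interval -1.43 to -0.69, limma, adjusted p = 0.0076, lower on 4 of 4 slides), 4.84% of all genes tested passed downward, and 19.2% lay below the control on all 4 slides.

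The decrease of SOX4 was called in each slide pair alone, with log2 differences of -1.30 (adjusted p = 0.0489) in pair A and -0.82 (adjusted p = 0.0495) in pair B. The pairs were picked from these data, so these calls are not independent support. Over all slides, the decrease stayed past the threshold with each of the 12 arrays left out (adjusted p 0.0072 to 0.0387). With Empa the SOX4 difference was -0.42 (SE 0.16, limma, adjusted p = 0.426), with a negative sign on 4 of 4 slides. Both agents read lower on all 4 slides for SOX4 alone among the 9 genes and for 3.69% of all genes. Without the slide as a block neither SPP1 nor SOX4 passed (limma, adjusted p = 0.716 and 0.328). Nor did they in the fits of 1 line label alone, where SPP1 gave 0.422 (HK-2) and 0.401 (RPTEC/TERT1) and SOX4 gave 0.487 and 0.344.

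**Figure D2:**
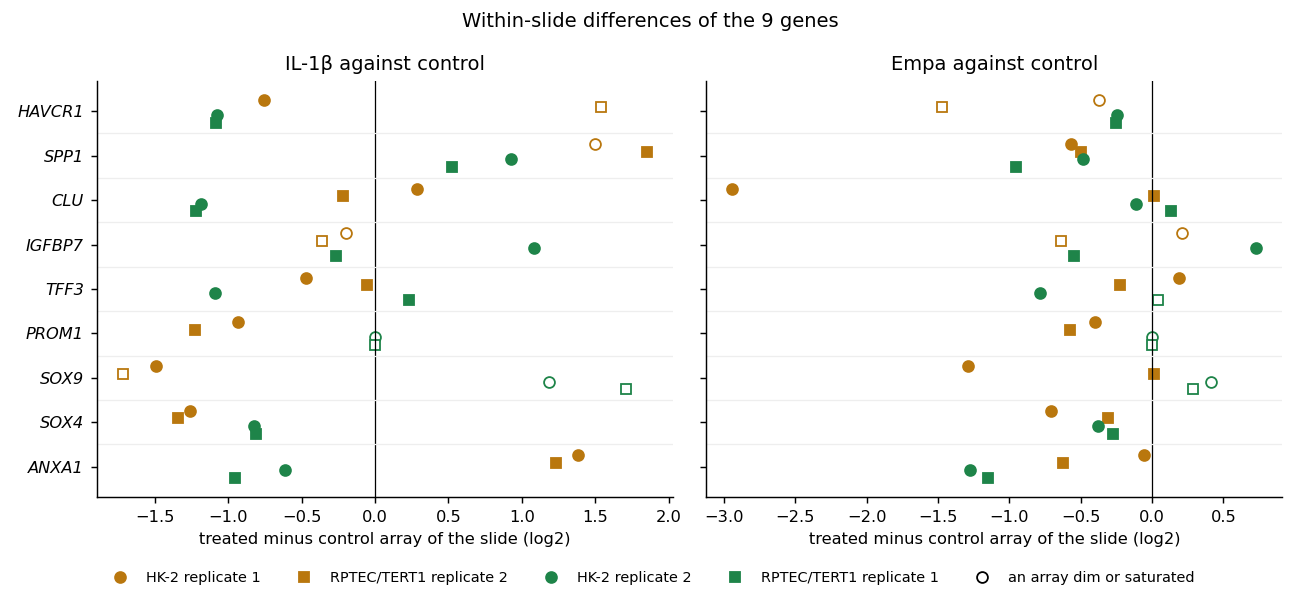
Difference between the treated and the control array of each slide (horizontal axis, log2) for the 9 genes, with IL-1β left and Empa right. Orange marks slide pair A and green slide pair B, circles the HK-2 and squares the RPTEC/TERT1 label. Open symbols rest on an array that was dim or saturated. SPP1 lies right of 0 on all 4 slides with IL-1β, SOX4 left of 0 on all 4, and ANXA1 right of 0 in orange and left of 0 in green.

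The stretches upstream of SPP1 and SOX4 are given because these were the members past the threshold. Each holds the 250 bases before the transcription start in RefSeq (GRCh38.p14), at chr4:87975464-87975713 for SPP1 and chr6:21593501-21593750 for SOX4, both on the plus strand. Capitals mark CCAAT on either strand.
SPP1 upstream: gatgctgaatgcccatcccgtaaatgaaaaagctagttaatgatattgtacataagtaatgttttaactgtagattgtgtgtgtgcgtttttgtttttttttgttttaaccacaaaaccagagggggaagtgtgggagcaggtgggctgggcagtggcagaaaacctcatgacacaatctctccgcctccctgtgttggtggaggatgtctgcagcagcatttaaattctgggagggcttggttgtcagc
SOX4 upstream: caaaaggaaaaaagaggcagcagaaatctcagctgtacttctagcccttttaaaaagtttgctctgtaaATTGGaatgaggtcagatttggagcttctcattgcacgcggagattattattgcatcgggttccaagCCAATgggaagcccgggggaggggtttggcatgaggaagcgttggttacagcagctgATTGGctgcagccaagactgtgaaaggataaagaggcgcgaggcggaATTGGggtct
CCAAT stood 4 times upstream of SOX4 and 0 times upstream of SPP1, and 32.0% of the 35116 stretches of this length in the table held it. Neither stretch held the AP-1 letters TGANTCA (6.57% of all) or an NF-κB motif, GGG and TTCC with any 3 bases between (5.67%), searched on both strands. These are matches of letters and not sites of binding. RefSeq promoters were at hand for 5 of the 9 members.

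HAVCR1 was bright in pair B and at the edge of detection in pair A. Its control signal was 343 on HK-2 replicate 2 and 521 on RPTEC/TERT1 replicate 1, against 23.3 on HK-2 replicate 1 and 8.35, not well above background, on RPTEC/TERT1 replicate 2. With IL-1β the pair B slides fell to 163 and 245, which is 0.474 and 0.471 of their controls. This decrease was called in the fit of pair B alone (log2 -1.08, SE 0.10, limma, adjusted p = 0.0347), whose slides were picked from these data for their likeness. Over all 4 slides HAVCR1 was not called (log2 -0.35, SE 0.57, adjusted p = 0.762). Without RPTEC/TERT1 IL-1β replicate 2 the difference was -1.12 (adjusted p = 0.0690), and without RPTEC/TERT1 IL-1β replicate 1 or HK-2 IL-1β replicate 2 it was -0.043 and -0.046. Without HK-2 IL-1β replicate 1 it was -0.17. In pair A its IL-1β signal was 13.8 on HK-2 replicate 1 and 24.3 on RPTEC/TERT1 replicate 2, the latter at least 2.91-fold above a control that was not well above background. The Empa array was below the control on 4 of 4 slides. In pair A neither Empa array was well above background, nor was the control of RPTEC/TERT1 replicate 2. In pair B the Empa arrays were at 0.844 and 0.839 of the control, and over all slides the log2 difference was -0.58 (SE 0.57, limma, adjusted p = 0.701).

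CLU encodes clusterin, a secreted chaperone that is released by damaged tubules. The control signals were 940 and 1297 in pair A and 2986 and 1953 in pair B, in the slide order HK-2 and then RPTEC/TERT1. IL-1β gave 1310 and 838 in pair B, 0.439 and 0.429 of the controls. The decrease was called in pair B alone (log2 -1.20, SE 0.13, limma, adjusted p = 0.0390), with the same limit of picked slides as for HAVCR1. In pair A the IL-1β signals of 1144 and 1116 lay on both sides of their controls, and over all 4 slides the difference was -0.59 (SE 0.66, adjusted p = 0.635). Empa left CLU at 1.01, 0.925 and 1.10 times the control on the slides RPTEC/TERT1 replicate 2, HK-2 replicate 2 and RPTEC/TERT1 replicate 1. The Empa array of HK-2 replicate 1 gave the lowest r of each kind of array comparison. These were 0.960 within the slide pair, 0.852 within the line label and 0.835 within the replicate number. CLU read 123 on it, or 0.130 of the control, on a single spot that carried no outlier mark. The Empa difference of CLU was -0.73 (SE 0.66, adjusted p = 0.675) with that array and 0.16 (SE 0.31, adjusted p = 0.883) without it.

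IGFBP7, whose secreted protein binds insulin-like growth factors and serves as a urinary marker of cell cycle arrest, was saturated on 5 of the 6 arrays of pair A. Its signal there ran from 63383 to 99509, so that no fold change could be given in pair A. In pair B the controls were 9888 and 19443, the IL-1β arrays 20986 and 16136, and the Empa arrays 16410 and 13298, for HK-2 replicate 2 and RPTEC/TERT1 replicate 1 in turn. Both agents lay above the control on the first of these slides and below it on the second. Neither difference passed over all slides (limma, log2 0.06, SE 0.27, adjusted p = 0.916 for IL-1β and log2 -0.06, adjusted p = 0.940 for Empa).

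TFF3, one of the small trefoil peptides that mucosal and tubular epithelia secrete during repair, was dim throughout. Its most readable probe ran from 16.8 to 36.6 and was well above background on 11 of 12 arrays. A second probe ran from 3.25 to 14.3 and was well above background on 1 array, and the third was well above background on none. The IL-1β difference of the first probe was -0.35 (SE 0.23, adjusted p = 0.399) and the Empa difference -0.19 (SE 0.23, adjusted p = 0.754). With IL-1β 3 of 4 slides were lower, and with Empa 2 of 4.

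PROM1 was measured in pair A and stood at the floor on all 6 arrays of pair B, none of them well above background. Its controls in pair A were 1492 and 1405, close to each other. Against the level of the dimmest signals well above background, the pair A controls were at least 209-fold higher than those of pair B. With IL-1β the pair A slides gave 782 and 601, which is 0.524 and 0.428 of the controls, and with Empa 1132 and 945, which is 0.759 and 0.673. In pair A alone the log2 difference was -1.08 for IL-1β (SE 0.22, limma, adjusted p = 0.0587) and -0.48 for Empa (SE 0.22, adjusted p = 0.530). Both missed the threshold. The estimate over all 4 slides, -0.54 with IL-1β (adjusted p = 0.175), averages in 2 slides where the probe gave no reading.

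SOX9, a SoxE factor that marks regenerating tubule cells, was also read in pair A. The controls there were 120 on HK-2 replicate 1 and 58.5 on RPTEC/TERT1 replicate 2, and none of the 6 arrays of pair B was well above background. IL-1β gave 42.4 on HK-2 replicate 1, 0.354 of the control. On RPTEC/TERT1 replicate 2 the IL-1β array was not well above background, and the control was at least 3.29-fold higher. The difference in pair A alone was -1.61 on the log2 scale (SE 0.45, limma, adjusted p = 0.110). With Empa the slides disagreed, at 0.409 and 1.01 of the control. The 0.409 was read on the Empa array of HK-2 replicate 1, which gave the lowest r in the array comparisons given with CLU. SOX9 and its relative SOX4 both read lower with IL-1β in pair A, where SOX4 was called and SOX9 was not.

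ANXA1 had separate levels in the slide pairs and opposite signs with IL-1β. The controls were 9005 and 9801 in pair A and 3329 and 2958 in pair B, a ratio of the geometric means of 2.99. IL-1β gave 23447 and 23069 in pair A, 2.60 and 2.35 times the controls. In pair B it gave 2174 and 1526, or 0.653 and 0.516 of them. The log2 difference was 1.31 in pair A alone (SE 0.25, limma, adjusted p = 0.0524) and -0.78 in pair B alone (SE 0.16, adjusted p = 0.0875). Over all 4 slides these gave 0.26 (SE 0.39, adjusted p = 0.733). The same split of signs was seen in 8.43% of all genes tested. With Empa, ANXA1 was lower on 4 of 4 slides, at 0.961 and 0.650 of the control in pair A and 0.412 and 0.452 in pair B (log2 -0.78, SE 0.39, adjusted p = 0.497).

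**Figure D3:**
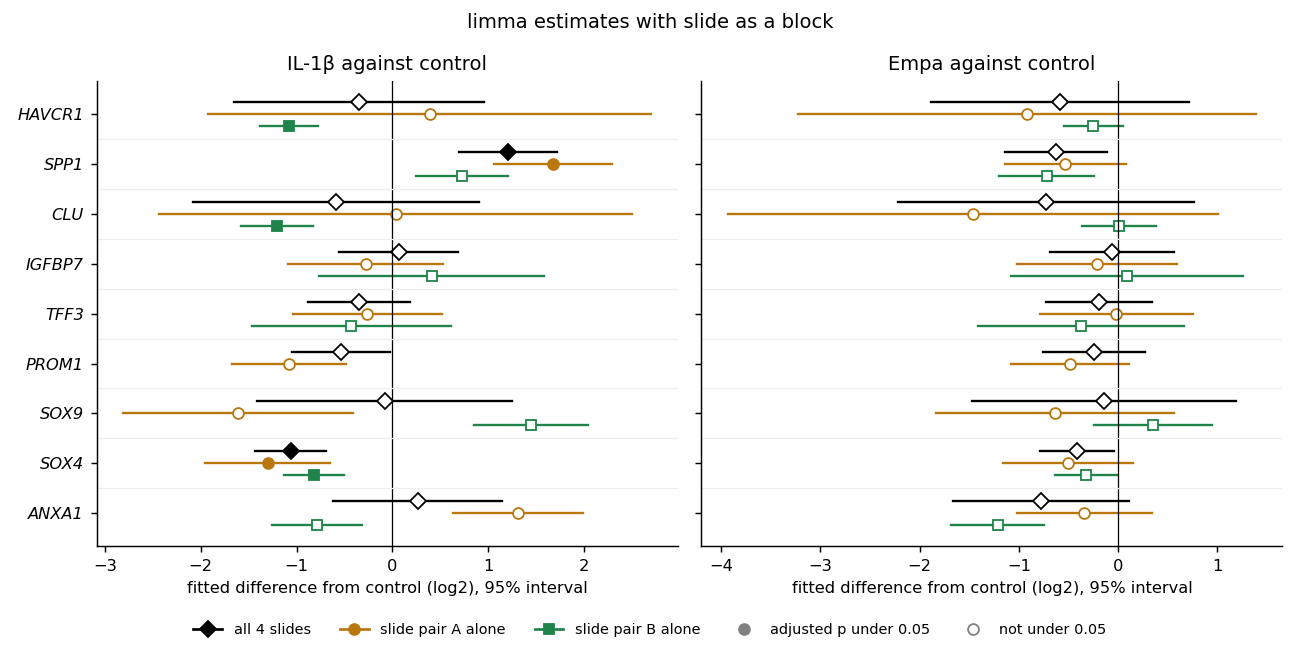
Differences from the control fitted by limma (horizontal axis, log2) with 95% intervals for the 9 genes, from all 4 slides (diamonds), slide pair A alone (circles) and slide pair B alone (squares). Filled symbols passed an adjusted p under 0.05. With IL-1β these are SPP1 and SOX4 over all slides and in pair A, and SOX4, HAVCR1 and CLU in pair B. PROM1 is not drawn for pair B, where it was at the floor. The slide pairs were picked from these data for their likeness.

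As a set, with IL-1β 1 of the 9 genes rose, 1 fell and 7 were not called, where 8.89% of all genes were called, 4.05% higher and 4.84% lower. The median log2 difference was -0.35, beside -0.03 over all genes tested. SPP1, SOX4 and PROM1 had an unadjusted p under 0.05, as did 25.8% of all genes. With Empa 0 of 9 were called by limma, and SPP1 and SOX4 had an unadjusted p under 0.05. Of all genes tested, 0.0056% were called with Empa and 10.8% had an unadjusted p under 0.05. The fitted Empa differences had a median of -0.42 beside 0.00 over all genes. All 9 were below 0, although SOX9 was above the control on 3 of 4 slides and CLU, IGFBP7 and TFF3 on 2 of 4. For SOX9 on the pair B slides neither array was well above background, and RPTEC/TERT1 replicate 2 was at 1.01 of the control. For IGFBP7 the control of HK-2 replicate 1 was saturated. For TFF3 the Empa array of RPTEC/TERT1 replicate 1 was not well above background. Leaving out 1 array turned the sign for HAVCR1, CLU, SOX9, IGFBP7 and TFF3. HAVCR1, SPP1, SOX4 and ANXA1 read below the control on all 4 slides, as did 11.7% of all genes. For HAVCR1 neither Empa array of pair A was well above background. Both treatments were read against the same control arrays. The responses labelled RPTEC/TERT1 and HK-2 were not shown to differ for any of the 9 genes (limma interaction, adjusted p = 1 for each, 0% of all genes called for either agent, 1.32% and 1% at an unadjusted p under 0.05 for IL-1β and Empa). For SPP1 the difference between the labels in the IL-1β response was -0.02 on the log2 scale with a 95% interval from -1.27 to 1.22, and for SOX4 -0.03 (-0.93 to 0.86). These intervals are wide enough to hold a difference as large as the responses themselves for SPP1.

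Other genes of tubule injury and repair moved in both directions with IL-1β. Of 25 such genes on the list, 20 were tested, 3 rose, 3 fell and 14 were not called, with a median of -0.06. Of all genes tested 4.05% rose and 4.84% fell. LCN2, whose protein NGAL is a urinary injury marker, rose most. Its control signals were 3.87 and 4.75 in pair A, not well above background, and 1391 and 1066 in pair B, and with IL-1β all 4 slides read between 8245 and 15158 (limma, adjusted p = 0.0497). That call was lost when any of 9 arrays was left out, and its fitted size depends on the floor. ITGB8, an integrin subunit that activates TGF-β, rose 4.43-fold (adjusted p = 0.0059). CDH6, the cadherin of the fetal and proximal tubule, fell 3.48-fold (adjusted p = 0.0021), with 2 of its 12 arrays not well above background. LIF also rose and IL18 and MDK also fell, which are named here after their values were seen. None of the 20 was called with Empa, where the median was -0.34.

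Relatives and partners were followed in the same way. Of 20 relatives of the 9 genes, 14 were tested. Among them IGFBP5, a binding protein of the IGFBP7 name family, rose with IL-1β (log2 3.32, SE 0.83, adjusted p = 0.0438), with 41.1 and 50.5 in pair B cells whose controls were at the floor. IGFBP6 fell 1.87-fold (adjusted p = 0.0300), and the other 12 were not called. Both calls were lost with single arrays left out, 10 of 12 arrays for IGFBP5 and 8 for IGFBP6. Of 13 annexins and S100 partners 10 were tested and ANXA9 fell (log2 -1.60, adjusted p = 0.0230), although it was well above background on the 6 arrays of pair B alone and 5 arrays could end the call. The other annexins of this list that were tested, ANXA2 to ANXA7 and ANXA11, were not called. Of 23 receptors and binding partners 18 were tested. The clusterin receptor LRP8 rose 6.14-fold (adjusted p = 0.0138), and missed the threshold without HK-2 control replicate 1 (adjusted p = 0.0544), RPTEC/TERT1 control replicate 2 (0.0591) or RPTEC/TERT1 IL-1β replicate 2 (0.0504). LRP2, the endocytic receptor megalin, which also takes up clusterin, fell 5.12-fold (adjusted p = 0.00045, lower on 4 of 4 slides). The osteopontin-binding integrin genes ITGAV, ITGB1, ITGB3, ITGB5, ITGA4, ITGA5 and ITGA9 were not called. No gene of these 3 lists was called with Empa.

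**Figure D4:**
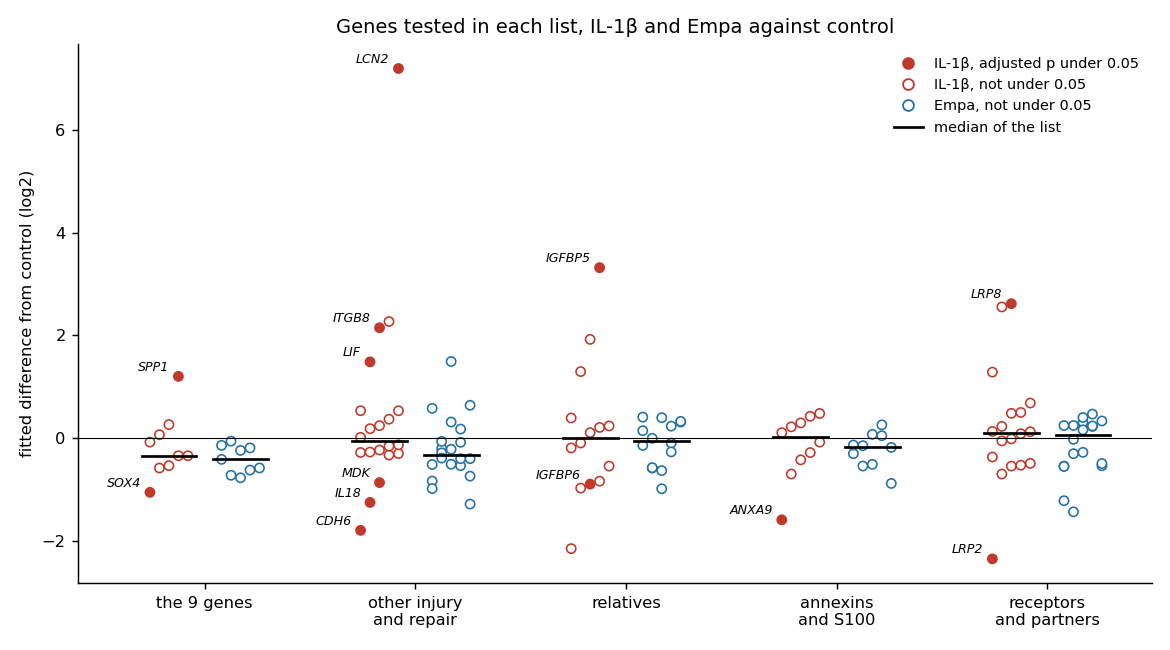
Fitted differences from the control (vertical axis, log2) of every gene tested in the set of 9 and in 4 lists of related genes, with IL-1β in red and Empa in blue. Filled points passed an adjusted p under 0.05 and are named, and bars are medians. LCN2 is the highest point at 7.20 and LRP2 the lowest filled point at -2.36, and no blue point is filled.

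A spot marked as an outlier on at least 1 array kept CD44, CD24, KRT19 and DCDC2 out of the main fit, although all were well above background on all 12 arrays. With outlier spots kept, CD44, a receptor of osteopontin, was 4.63-fold higher with IL-1β (limma, adjusted p = 0.00074, higher on 4 of 4 slides), and 1 of its 12 spots carried the mark. In that fit CD24 was 3.60-fold lower (adjusted p = 0.0042) and DCDC2 2.51-fold lower (adjusted p = 0.0089), each on 4 of 4 slides, and KRT19 was not called. These 4 were named after their values were seen.

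Some markers of the differentiated epithelium fell with IL-1β, as did 4.84% of all genes tested. Of the 11 proximal tubule markers tested 3 fell, with none higher, and their summed signal ran from 2303 to 24641 in controls and from 1691 to 5286 with IL-1β. Such sums are led by the brightest probes and do not measure a marker class. In pair A, SLC3A1 alone read 17206 and 17707 in controls and 1032 and 1164 with IL-1β. Its pair B controls read 77.1 and 91.3. Of 8 renal epithelial markers 3 fell, with sums of 20985 to 90278 and 17463 to 57669. Of 2 tested markers of other nephron segments 1, SCNN1A, fell, with sums of 1060 to 13463 and 244 to 362. The pair A control sums there came mostly from SLC12A1, at 8010 and 12874, which was not called and stood at the floor in pair B. Of 4 fibroblast and pericyte markers 1 fell, with sums of 610 to 4089 and 217 to 5015. None of the 3 podocyte markers tested was called (195 to 334 and 190 to 262). The same held for 2 endothelial markers (65.7 to 103 and 64.7 to 120) and 4 leukocyte markers (175 to 1063 and 635 to 1003). No marker was called with Empa. The part of these markers in the responses of the 9 genes was not tested.

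The genes most like SPP1 over the 8 differences from the control, among 12605 genes well above background on all arrays, were CTPS1 (Pearson's r 0.986), SAT1 (0.985) and CXCL2 (0.984). For SOX4 they were CYFIP2 (0.986), a probe named only by a transcript number (0.986) and C2orf15 (0.985). The points share slides and control arrays, and the genes were picked as the highest of many, so the values only describe these arrays.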

How the data were processed

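Total RNA of the cells was hybridised to 12 one-colour Agilent arrays on 4 slides. Per the file headers, the authors' Feature Extraction software (9.5.3.1) gave background-subtracted intensities, which were deposited as the scanner files. A log2 table that the authors deposited as quantile-normalized served as an alternative. How it was made is not given in the sources used here. Groups came from the sample titles.

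After removal of control and outlier spots, replicate spots were averaged per probe, and probes needed a value on all 12 arrays. Signals were scaled to each array's 75th percentile (230 to 551 before scaling), floored at 1 unit and log2-transformed. Between 53.5% and 63.8% of probes were well above background. Of each gene, the brightest probe well above background on at least 2 arrays was tested with limma 3.58.1 (R 4.3.3), slide as a block, 1 effect per treatment and Benjamini-Hochberg adjustment over 17843 genes (threshold 0.05). The within-slide pairing came from the slides. Deviations of arrays with the same number and line label correlated with r of 0.703 to 0.892. The 2 replicates of a label belong to different slide pairs, so these deviations hold the difference between the pairs. They therefore do not test the pairing within a slide. Where 1 array of a comparison was not well above background, a bound replaced the fold change, taken against the lowest signal well above background on that array or the dim signal, whichever was higher. The fit was tested on simulated data in which each changed gene had the same IL-1β effect on every slide. Responses that differ between slides, as read for ANXA1, were not simulated.

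The members and lists were chosen with earlier results of these data known. From each list, the 3 genes with the largest effect of each agent among those past the threshold are named, and for each member called with IL-1β the 3 genes most like it. The alternatives were other normalizations, filters, floors and blocks, subsets of slides, and each array left out. The few arrays limit the precision.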

Additional observations from a re-analysis of the deposited data

Results flagged for a closer look

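With Empa, the values of CLU and IGFBP7 lay on opposite sides of the control in the slides of the 2 line labels. CLU was lower than the control on both slides labelled HK-2 and higher on both labelled RPTEC/TERT1, and the response labelled RPTEC/TERT1 minus that labelled HK-2 was 1.60 on the log2 scale (95% interval -1.45 to 4.64, limma interaction, adjusted p = 1). The HK-2 side rests on the replicate 1 array with a within-slide difference of -2.94, while the other 3 differences lay between -0.11 and 0.13. For IGFBP7 the recorded values gave a difference of -1.06 (95% interval -2.19 to 0.07, adjusted p = 1). Of the 4 control and Empa arrays of pair A, 3 were saturated at IGFBP7, so the direction on those slides and the size of this difference cannot be read. The 2 slides of pair B were measured, with 0.73 on the slide labelled HK-2 and -0.55 on that labelled RPTEC/TERT1. The line labels themselves are in doubt, as described with the array correlations.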

How the results depend on the processing

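Over 4 slides IL-1β called 2 of the 9 genes, SPP1 and SOX4. Without the replicate block, which ignores the pairing of arrays on a slide, the count was 0, and 5 genes of 17843 were called in all. The count was also 0 in the slides labelled HK-2 alone and in those labelled RPTEC/TERT1 alone. Leaving out 1 array at a time gave 1 to 2. No other fit changed the count by more than 1.5 times, and it was 0 for Empa and for the comparisons of line labels in every fit run. The genes behind the IL-1β count did change, since pair B alone called CLU, HAVCR1 and SOX4 and not SPP1.

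Signs turned in these cases (log2 differences). With IL-1β in pair A alone HAVCR1 was 0.39, CLU 0.033 and IGFBP7 -0.28. In pair B alone SOX9 was 1.45 and ANXA1 -0.78. In the slides labelled RPTEC/TERT1 alone HAVCR1 was 0.23, IGFBP7 -0.31 and TFF3 0.088, and quantile normalization gave SOX9 0.20. With Empa in pair B alone CLU was 0.0095, SOX9 0.35 and IGFBP7 0.091. In the slides labelled RPTEC/TERT1 alone CLU was 0.072 and SOX9 0.15, and in those labelled HK-2 alone IGFBP7 was 0.47. With Empa, normexp background correction gave HAVCR1 0.029 and TFF3 0.013, quantile normalization IGFBP7 0.063 and the authors' table IGFBP7 0.15. With single arrays left out, IL-1β differences ran from -0.61 to 0.49 for SOX9, -0.24 to 0.23 for IGFBP7 and -0.045 to 0.61 for ANXA1. Empa differences ran from -0.82 to 0.025 for HAVCR1, -1.12 to 0.16 for CLU, -0.51 to 0.28 for SOX9, -0.36 to 0.10 for IGFBP7 and -0.34 to 0.029 for TFF3. None of these genes was called over all slides. The cause was not tested. Normexp moved the median of all genes with IL-1β to -0.11. Signals near the background limit HAVCR1, PROM1, SOX9 and TFF3, and saturation limits IGFBP7. The calls of LCN2, IGFBP5, IGFBP6 and ANXA9 were lost with single arrays left out (adjusted p up to 0.160, 0.131, 0.111 and 0.0841).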
